A study of Mus musculus with 3 samples.

Results

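The genes described here are 10 genes of interleukin 6 signalling and of inflammatory signalling more widely: the cytokines Il6, Lif and Il11, the receptor chains Il6st, Il6ra and Osmr, the feedback inhibitor Socs3, the alarmin Il33 with its receptor Il1rl1, and the prostaglandin enzyme Ptgs2. They were picked by symbol from the 18245 genes of the expression table, and all 10 were found there. The list was drawn up because Il6 was nearly lost in an epithelial clone, so the levels of Il6 and of the other 9 genes in that clone are given as a description, without a test.

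RNA was sequenced from 3 kinds of cultured cells from the ventricle epicardium, the outer layer of the heart, of adult C57BL/6 mice without any named allele. Cardiosphere-derived cells (CDC) are mesenchymal cells grown out of epicardial explants and passed through floating spheres; CDC-EpiC are the cells of an epithelial clone that formed within 2 weeks after CDC had been given 10 µM SB-431542, which blocks the kinase of type I receptors for TGF-beta; and pEpiC are primary epicardial cells grown from digested hearts. Each kind had 3 libraries, with total expected counts between 22008833 and 22756045, and the 3 CDC-EpiC libraries came from 1 clone. Whether the 3 libraries of a kind came from separate animals or cultures is not given in the sources used here, so each p-value measures the spread between these libraries, which may be technical. The effects of the inhibitor, of picking a clone and of the later purification by trypsin cannot be told apart, and it is not stated whether the inhibitor was present at harvest. CDC were started from peeled ventricle epicardium and pEpiC from digested hearts, and they were grown in different media, both with serum. The sphere stage of the CDC culture contained cardiotrophin-1, itself a cytokine of the interleukin 6 family. Starting tissue, medium and kind of cell thus cannot be told apart either.

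Cytokines of the interleukin 6 family share one signal-transducing receptor chain, gp130, the product of Il6st. Each cytokine brings gp130 together with a partner: interleukin 6 uses the receptor encoded by Il6ra, leukaemia inhibitory factor uses Lifr, and oncostatin M uses Osmr. The receptor complex activates JAK kinases and the transcription factor STAT3, and STAT3 induces Socs3, whose product blocks gp130 in turn. Il6 and Ptgs2 are also classical targets of NF-kB, the factor activated by interleukin 1 and by the interleukin 33 receptor encoded by Il1rl1. In the injured heart, this family is known for its part in fibroblast activation and in the survival of cardiomyocytes.

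The RefSeq promoter sequences (build GRCm38.p6, the patch series of mm10) of Il6, Socs3 and Ptgs2 are shown. Each holds a match to 1 or more of the motifs searched, those of NF-kB, STAT, AP-1, C/EBP and CRE. Promoters of Lif, Il11 and Il6ra also hold a match and are not shown. Each line gives the 250 bases before a RefSeq transcription start, 5′ to 3′ on the strand of the gene, with the motif matches in capitals. The Il6 sequence is chr5:30012864-30013113 on the plus strand, the Socs3 sequence chr11:117969367-117969616 on the minus strand and the Ptgs2 sequence chr1:150099781-150100030 on the plus strand.
Il6: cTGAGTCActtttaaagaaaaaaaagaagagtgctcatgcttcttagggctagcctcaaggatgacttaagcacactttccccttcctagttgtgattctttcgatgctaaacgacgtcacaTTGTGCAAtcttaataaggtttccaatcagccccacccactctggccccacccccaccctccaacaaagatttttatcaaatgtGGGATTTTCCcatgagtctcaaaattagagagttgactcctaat
Socs3: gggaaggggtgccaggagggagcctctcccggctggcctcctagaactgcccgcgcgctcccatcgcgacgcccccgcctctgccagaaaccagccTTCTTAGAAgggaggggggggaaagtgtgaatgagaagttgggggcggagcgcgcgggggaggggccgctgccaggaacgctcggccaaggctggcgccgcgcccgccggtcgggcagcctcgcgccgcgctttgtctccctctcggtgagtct
Ptgs2: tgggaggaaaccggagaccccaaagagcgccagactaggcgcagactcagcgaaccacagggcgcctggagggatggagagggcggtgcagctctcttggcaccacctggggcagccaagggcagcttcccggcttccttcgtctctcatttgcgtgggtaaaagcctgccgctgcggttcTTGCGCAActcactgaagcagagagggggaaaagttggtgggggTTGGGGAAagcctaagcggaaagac
Capitals in the Il6 sequence mark, from left to right, an AP-1 match at -249 to -243, a C/EBP match at -128 to -121 and an NF-kB match at -44 to -35, counted back from the base before the start. The Socs3 sequence holds a STAT match at -154 to -146, and the Ptgs2 sequence holds C/EBP matches at -69 to -62 and at -25 to -18. The GENCODE annotation of the same build places no exon in the Il6 window, 77 bases of a noncoding Socs3 transcript in the Socs3 window, and exons of the antisense gene Ptgs2os in the Ptgs2 window. Motifs were searched on both strands as TTCNNNGAA for STAT, TTGNGNAA for C/EBP and TGACGTCA for CRE, a palindromic match being counted once. The NF-kB motif was the matched sequence GGGATTTTCC of Il6 with the base at position 5 free, and the AP-1 motif the matched sequence TGAGTCA of Il6 with its middle base free. Of the 32851 promoter windows of this length, 0.356% held the NF-kB letters, 7.02% the STAT letters, 6.75% the AP-1 letters, 11.7% the C/EBP letters and 1.55% the CRE letters. Lif had 1 AP-1 match, Il11 1 AP-1 match in 1 of 2 windows and Il6ra 1 C/EBP match. The windows of Il33, Il1rl1, Il6st and Osmr held none of these letters. By the GENCODE annotation the Osmr window lies wholly in an exon of Osmr itself. The Il6ra window lies wholly in an exon of the antisense gene Gm42809, and the Il11 window without a match overlaps exons of Tmem190. The NF-kB and AP-1 motifs were built on the Il6 sequence, so its matches to them were fixed in advance. A match describes the sequence only.

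Il6 was highest in CDC. The gene, NCBI gene 16193, is protein coding and lies on the plus strand at chr5:30013114-30019975. Its level was 57.6, 60.2 and 53.7 CPM (the count scaled to a common library size by the TMM method) in CDC libraries 1, 2 and 3, 3.99, 4.31 and 4.11 CPM in pEpiC, and 0.486, 0.499 and 0.753 CPM in the clone. The 3 kinds did not overlap. These levels rest on 1185 to 1328 expected counts per library in CDC, 92 to 99 in pEpiC and 11 to 17 in the clone, so the clone level is the least precise. The ratio of mean levels was 98.6 for CDC over the clone, 13.8 for CDC over pEpiC and 7.14 for pEpiC over the clone. In bulk RNA, fewer cells that express a gene and less RNA per cell cannot be told apart.

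Lif, which encodes leukaemia inhibitory factor, was highest in the clone. There it reached 52.2, 98.0 and 67.3 CPM, against 28.4, 27.4 and 29.8 CPM in CDC and 24.8, 24.5 and 28.7 CPM in pEpiC. All clone libraries lay above all libraries of the other kinds, while CDC and pEpiC overlapped. Clone library 2 was the highest, and the fitted log2 change of the clone against CDC, 1.34 ± 0.16 (SE, n = 3 per kind), was 1.05 without it. Il11, the third cytokine, was close to the limit of detection. It had 1.57, 1.04 and 0.362 CPM in CDC, 0.575, 0.182 and 0.753 CPM in the clone, and 1.43, 1.44 and 1.31 CPM in pEpiC, and CDC overlapped with both other kinds.

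Of the receptor chains, Il6st and Osmr were high in all kinds, and Il6ra was much lower. Il6st had 843, 755 and 1000 CPM in CDC, 583, 661 and 628 CPM in the clone and 854, 850 and 875 CPM in pEpiC. The clone was the lowest, and CDC spanned the pEpiC values. Osmr, the oncostatin M receptor chain, had the same order, with 283, 264 and 309 CPM in CDC, 158, 164 and 166 CPM in the clone and 279, 274 and 278 CPM in pEpiC. CDC library 3 was the highest of its kind for Il6st, Osmr and Il6ra. Il6ra, the interleukin 6 binding chain, was lowest in CDC, with 9.55, 9.66 and 11.5 CPM, intermediate in the clone, with 13.4, 15.4 and 17.3 CPM, and highest in pEpiC, with 21.8, 18.7 and 20.05 CPM, and no 2 kinds overlapped.

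Compared between genes per transcript length, as TPM, Il6st ranked first and Osmr second among the 10 genes in every kind. Il6 ranked 3rd in CDC at 89.8 ± 2.1 TPM (SD, n = 3), 7th in pEpiC at 8.92 ± 0.49 TPM and 8th in the clone at 0.960 ± 0.28 TPM. Il33 ranked 3rd in pEpiC at 56.1 ± 1.3 TPM, and Socs3 ranked 3rd in the clone at 54.8 ± 4.3 TPM. The TPM of Il6st was 52.1 ± 3.4 times that of Il6ra in CDC, 25.2 ± 2.4 times in the clone and 26.3 ± 2.0 times in pEpiC. Against Osmr the ratio was 2.63 ± 0.16 in CDC, 3.34 ± 0.16 in the clone and 2.68 ± 0.036 in pEpiC.

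**Figure D1:**
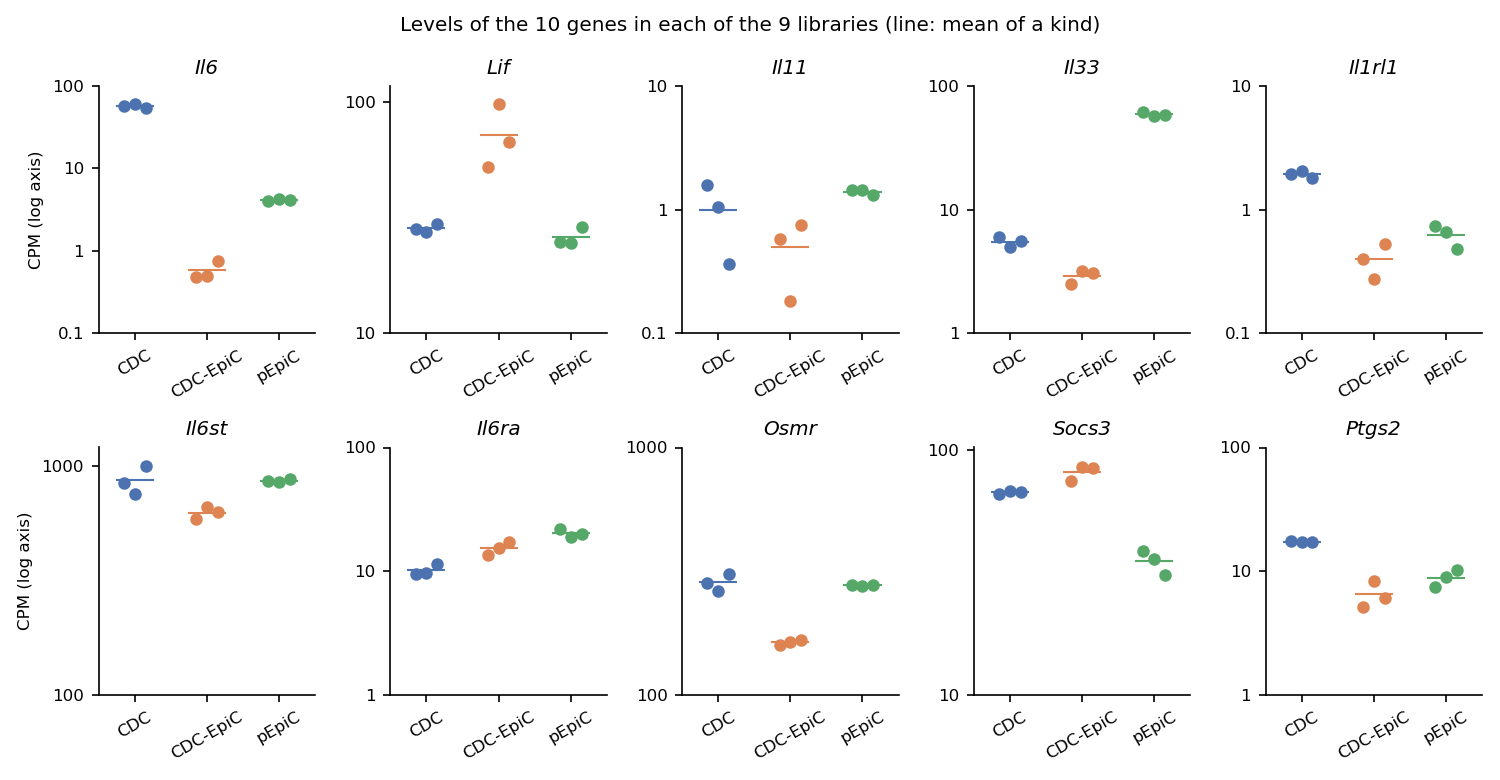
Level of each of the 10 genes in CPM on a log axis (each panel has its own range) in the 3 libraries of CDC, CDC-EpiC and pEpiC, with points for libraries and lines for means. Il6 falls from 57.2 CPM in CDC to 0.580 CPM in the clone, Lif is highest in the clone and Il33 is highest in pEpiC.

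Socs3, the feedback inhibitor of gp130, did not follow Il6 in the clone, though both genes were lower in pEpiC than in CDC. Its level was 66.0, 67.5 and 67.3 CPM in CDC, 74.1, 84.9 and 84.0 CPM in the clone and 38.6, 35.6 and 30.9 CPM in pEpiC. The clone, with the least Il6, had the most Socs3, and the 3 kinds did not overlap. The fitted log2 change of Socs3 was 0.27 ± 0.08 for the clone against CDC and 1.21 ± 0.08 for the clone against pEpiC.

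Il33, a nuclear cytokine of the interleukin 1 family released from damaged cells, was high in pEpiC alone. Its level was 61.2, 57.1 and 58.5 CPM in pEpiC, 6.00, 4.99 and 5.57 CPM in CDC and 2.52, 3.18 and 3.06 CPM in the clone. No 2 kinds overlapped, and the mean of pEpiC was 10.7 times that of CDC and 20.2 times that of the clone. Its receptor Il1rl1 was near the lower end in all kinds, with 1.94, 2.04 and 1.81 CPM in CDC, 0.398, 0.272 and 0.532 CPM in the clone and 0.737, 0.653 and 0.481 CPM in pEpiC. Il1rl1 is also expressed by mast cells, whose 7 measured markers summed to 2.27 to 2.94 CPM in CDC, 0.266 to 0.409 CPM in the clone and 3.08 to 3.50 CPM in pEpiC. Of these markers, 4 had at most 3 counts in every CDC library, 6 in every clone library and 3 in every pEpiC library. Tpsb2 alone was at 0 counts in every CDC library. In every clone library Cpa3, Mcpt4, Cma1 and Tpsb2 were at 0, and in every pEpiC library Cma1 and Ms4a2. Each 0 allows up to 3 counts per library. The part of mast cells in the Il1rl1 levels was not tested.

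Ptgs2, the inducible cyclooxygenase, was highest in CDC. It had 17.4, 17.1 and 17.3 CPM in CDC, 5.13, 8.35 and 6.07 CPM in the clone and 7.50, 8.89 and 10.2 CPM in pEpiC. CDC lay above both other kinds, which overlapped with each other.

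In pEpiC against CDC, the comparison of primary epicardial cells with explant-derived cells, 6 of the 10 genes passed edgeR's quasi-likelihood test at an adjusted p under 0.05 (Benjamini-Hochberg over the 13526 genes tested). Il33 and Il6ra were higher in pEpiC, and Il6, Il1rl1, Ptgs2 and Socs3 were lower. Over all genes, 78.3% passed, 39.8% higher and 38.5% lower in pEpiC, so 6 of 10 is below the share of the whole table. The libraries did not overlap for 81.5% of all genes, and 14.5% of all genes were lower and 15.8% higher in pEpiC by 2-fold or more. The CDC libraries are also those against which the loss of Il6 in the clone was seen. A high level of Il6 in CDC was thus part of what the list rests on. The call and adjusted p of Il6 in this comparison are therefore not independent of that choice.

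Il6 fell by 3.83 on the log2 scale (SE 0.084, adjusted p = 2.97e-10), and Il33 rose by 3.37 (SE 0.080, adjusted p = 4.37e-10). Il6ra rose by 0.94 (SE 0.10, adjusted p = 1.08e-05). Il1rl1 fell by 1.66 (SE 0.24, adjusted p = 0.000115), Ptgs2 fell by 1.01 (SE 0.11, adjusted p = 1.44e-05) and Socs3 fell by 0.98 (SE 0.079, adjusted p = 1.49e-06). These 6 genes kept their direction and passed under every alternative tried in which they could be tested. The log2 change was -0.18 ± 0.078 for Lif (adjusted p = 0.0578), -0.05 ± 0.091 for Il6st (adjusted p = 0.599), -0.09 ± 0.066 for Osmr (adjusted p = 0.255) and 0.45 ± 0.40 for Il11 (adjusted p = 0.327), and none of the 4 passed.

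The calls of those 4 genes turned on the scaling. Changes between pEpiC and CDC rose with transcript length, by 0.44 on the log2 scale per doubling of length over 10687 genes, and Lif, Osmr and Il6st lie at percentiles 75.9, 83.0 and 88.0 of length, Il11 at percentile 23.7. With a length offset in the fit, Lif (-0.37), Il6st (-0.43) and Osmr (-0.38) were lower in pEpiC and passed, while Il11 was at 0.90 (adjusted p = 0.0623). With log2(TPM + 1) they were higher and passed, at 0.29, 0.46 and 0.42, as was Il11 at 0.62, but the median of all genes then moved from 0.02 to 0.41, and relative to that median Il6st differed by 0.042, Osmr by 0.0092, Il11 by 0.21 and Lif by -0.12. Thus 2 genes were higher and 7 lower with the length offset, and 6 higher and 4 lower in TPM.

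**Figure D2:**
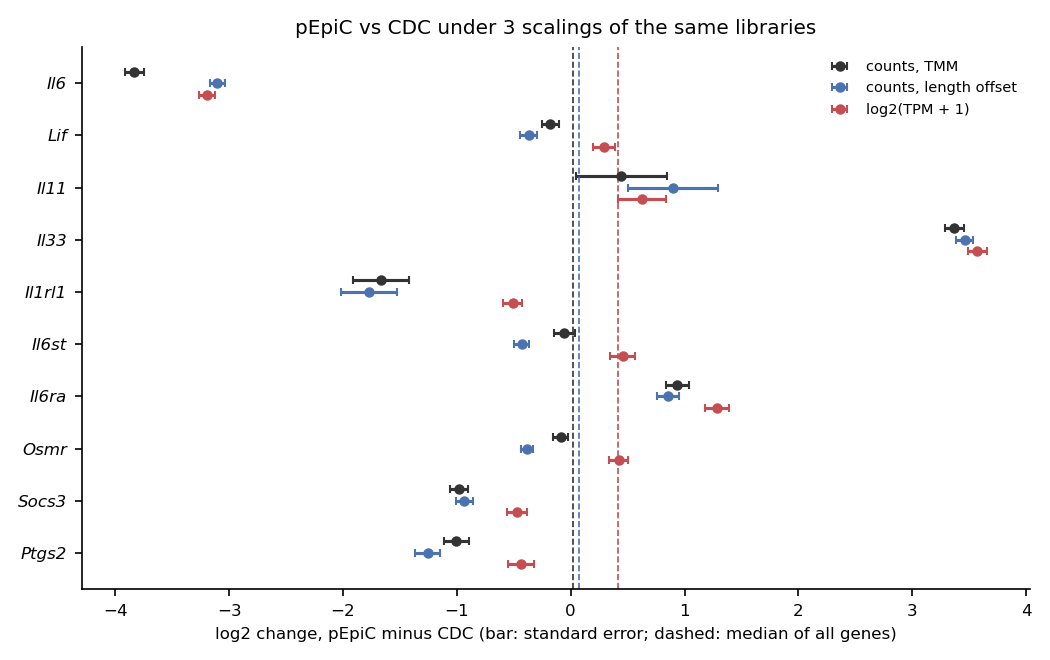
Fitted log2 change (pEpiC minus CDC, bars for standard errors) of the 10 genes under TMM-scaled counts, counts with a length offset and log2(TPM + 1), with dashed lines for the median of all genes under each. Il6 and Il33 lie beyond -3 and 3 under all 3 scalings, while Lif, Il6st and Osmr change sign between them.

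Macrophage transcripts moved with pEpiC. The 10 macrophage markers summed to 309 to 867 CPM in pEpiC, 57.7 to 61.0 CPM in CDC and 22.6 to 25.2 CPM in the clone, and pEpiC library 1 had the most, each marker being 2.46 to 3.52 times the mean of the other two libraries. Il6ra, which macrophages also express, was highest in pEpiC library 1, and its log2 change against CDC was 0.88 without that library (adjusted p = 2.93e-05). Of the 10 macrophage markers, 5 had at most 3 counts in every CDC library and 7 in every clone library. The CDC and clone sums thus rest mainly on the other markers. Ptprc was at 0 counts in every clone library. Epicardial and mesothelial markers summed to 5786 to 6748 CPM in the clone, against 539 to 579 CPM in pEpiC and 681 to 709 CPM in CDC, and fibroblast and stromal markers to 31506 to 34335 CPM in pEpiC, against 9596 to 12654 CPM in CDC and 6502 to 8028 CPM in the clone. Of the 10 epicardial and mesothelial markers, 5 were higher and 5 lower in pEpiC than in CDC by the test: Wt1 (2.30 on the log2 scale), Tcf21 (3.01), Lrrn4 (0.92), Krt8 (3.26) and Krt18 (3.65) rose, and Tbx18 (-0.96), Upk3b (-1.77), Upk1b (-1.62), Msln (-0.86) and Krt19 (-4.90) fell. By the same test, 6 of 8 such markers rose and 2 fell in the clone against CDC. Against pEpiC, 7 of 10 rose and 3 fell. Of the 8 fibroblast and stromal markers, 2 rose and 4 fell in the clone against CDC, and none rose and 7 fell against pEpiC. In pEpiC against CDC 7 of these 8 rose and 1 fell. Over all genes, 68.8% passed in the clone against CDC, 81.9% in the clone against pEpiC and 78.3% in pEpiC against CDC. The part of these differences in the levels of the 10 genes was not tested.

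In the clone against CDC, the comparison of the epithelial clone with its parental kind, the fitted log2 change was -6.62 ± 0.14 for Il6, -2.25 ± 0.28 for Il1rl1 and -1.41 ± 0.14 for Ptgs2. These 3 genes were lower by 2-fold or more, as were 12.4% of the 12976 genes tested. Lif was the 1 gene higher by 2-fold or more, as were 9.37% of all genes. The libraries overlapped for Il11 alone among the 10 genes, and did not overlap for 72.1% of all genes. Between these lay Il11 at -0.97 ± 0.49, Il33 at -0.92 ± 0.16, Osmr at -0.81 ± 0.079, Il6st at -0.48 ± 0.10, Socs3 at 0.27 and Il6ra at 0.58 ± 0.12. The median of the 10 genes was -0.87 and that of all genes 0.0027. Il6 was listed for its near loss in the clone, so its place among the lower genes here was fixed in advance. Changes in this comparison hardly moved with transcript length (0.0063 per doubling over 10644 genes).

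In the clone against pEpiC, which shares the clone libraries with the comparison above and the pEpiC libraries with the one before it, Il33 (-4.34 ± 0.085), Il6 (-2.83 ± 0.21) and Il11 (-1.46 ± 0.38) were lower by 2-fold or more, as were 20.2% of the 13547 genes tested. Lif (1.47 ± 0.19) and Socs3 (1.21) were higher by 2-fold or more, as were 15.8% of all genes. Osmr was at -0.77 ± 0.045, Il1rl1 at -0.63 ± 0.36, Il6st at -0.46 ± 0.058, Ptgs2 at -0.45 ± 0.18 and Il6ra at -0.40 ± 0.10. The libraries overlapped for Il1rl1 and Ptgs2, and did not overlap for 84% of all genes. Changes in this comparison fell by 0.44 per doubling of transcript length over 10691 genes. With the length offset Il6 was at -3.50 and Il6st at -0.11. In TPM, where the median of all genes was -0.33, Il6 was at -2.35, Il6st at -0.85, Osmr at -1.15 and Socs3 at 0.81, so that Osmr joined the genes lower by 2-fold or more and Socs3 left those higher.

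**Figure D3:**
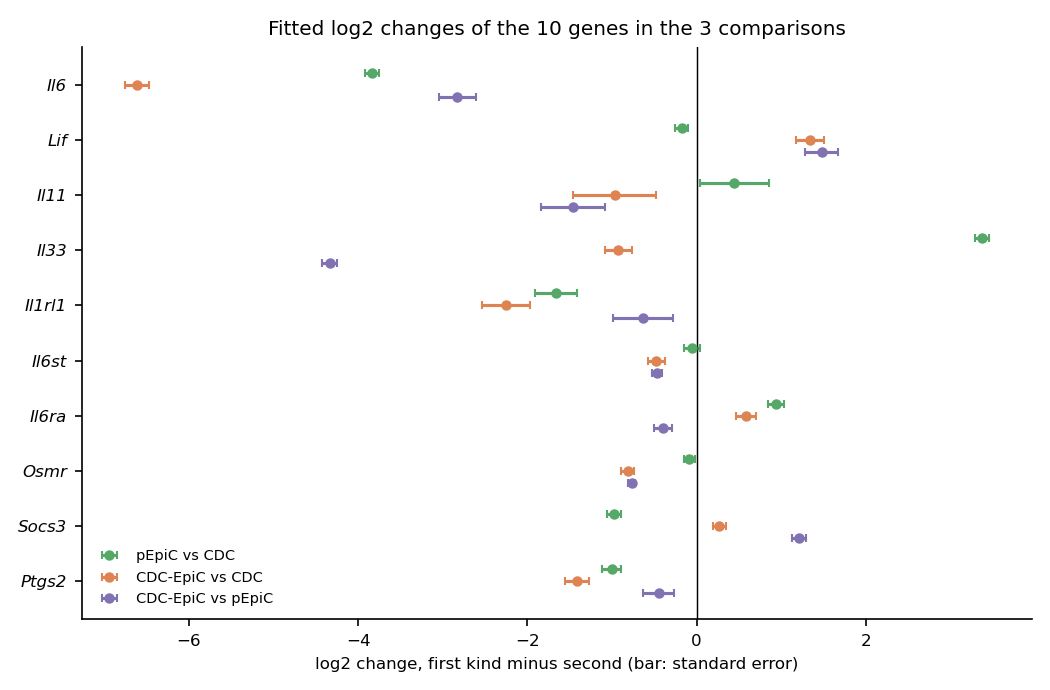
Fitted log2 change of the 10 genes in pEpiC vs CDC, CDC-EpiC vs CDC and CDC-EpiC vs pEpiC (first kind minus second, bars for standard errors). Il6 is lower in the clone than in both other kinds, by 6.62 and 2.83 on the log2 scale, while Lif is higher in it by 1.34 and 1.47.

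The 5 genes whose log2(CPM + 1) correlated best with Il6 over the 9 libraries, among 10197 genes with at least 10 CPM in 1 kind, were Cpxm2 (Pearson r = 0.999), Selenow (0.997), Snai1 (0.997), Serpinb9b (0.996) and Gnao1 (0.996). The libraries fall into 3 kinds, so each r describes the same order of the kind means and little else. Cpxm2, a carboxypeptidase-like secreted protein gene, had 143 ± 12 CPM in CDC, 1.01 ± 0.073 CPM in the clone and 7.10 ± 0.47 CPM in pEpiC (SD, n = 3). Snai1, a transcription factor of epithelial-mesenchymal transition, had 84.7 ± 6.4, 20.7 ± 1.3 and 33.3 ± 0.20 CPM in the same order. Serpinb9b, a serine protease inhibitor gene, had 107 ± 6.0, 4.49 ± 0.21 and 15.2 ± 2.3 CPM.

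The wider pathway was read from 7 lists with 93 other genes, tested in the same fits. The lists were chosen with earlier results of these data known, so their calls and splits are not independent of that choice. In pEpiC against CDC 61 of 81 tested genes passed (75.3%, against 78.3% of all genes), 25 higher and 36 lower; in TPM the split was 44 higher and 22 lower. Between the clone and CDC 57 of 78 passed (73.1%, against 68.8% of all genes), 25 higher and 32 lower. Between the clone and pEpiC 67 of 83 passed (80.7%, against 81.9% of all genes), 34 higher and 33 lower; in TPM the split was 23 higher and 48 lower. Of all genes, 34.2% were higher and 34.6% lower in the clone than in CDC, and 40.3% higher and 41.5% lower in the clone than in pEpiC. The shares of the 7 lists as a whole were thus near those of the whole table.

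Of the 8 other genes on the ligand list of the family, 4 were high enough to test. In pEpiC 3 fell and none rose against CDC, and in the clone 2 rose and 2 fell against each other kind. Without clone library 2, 1 rose and 1 fell against CDC, and 2 rose and 1 fell against pEpiC. Ctf1, which encodes cardiotrophin-1, had 4.43, 5.04 and 4.71 CPM in CDC, 13.8, 14.5 and 15.2 CPM in the clone and 2.99, 2.44 and 2.93 CPM in pEpiC, so that the clone lay above both. It rose in the clone by 1.61 against CDC (SE 0.11, adjusted p = 6.09e-09) and by 2.37 against pEpiC (SE 0.12, adjusted p = 3.54e-08). Osm, the ligand of Osmr, was singled out after its values were seen: it had 0 counts in all CDC and clone libraries, which allows up to 3 counts per library, and 10, 5 and 8 counts in pEpiC.

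Among the other receptor chains, 1 rose and 2 fell of 4 tested in pEpiC against CDC, 1 rose and 1 fell of 5 in the clone against CDC, and 2 rose and none fell of 5 in the clone against pEpiC. In TPM 2 rose and 1 fell in each comparison with CDC, and none rose and 2 fell in the clone against pEpiC; with the length offset it was 2 and 2 in pEpiC against CDC and 2 and 1 in the clone against pEpiC. Without CDC library 2, 2 rose and 1 fell in the clone against CDC, and without clone library 3, 1 rose and none fell in the clone against pEpiC. Lifr, the leukaemia inhibitory factor receptor chain, had 27.1, 29.3 and 31.8 CPM in CDC, 30.3, 27.9 and 27.5 CPM in the clone and 17.6, 21.7 and 19.4 CPM in pEpiC. The log2 change of Lifr in the clone against CDC was -0.05 ± 0.084 (adjusted p = 0.621), so this chain was not shown to move where its ligand gene Lif was highest. Lifr rose by 0.54 in the clone against pEpiC (SE 0.085, adjusted p = 0.000191). In TPM it was at -0.0546, where the median of all genes was -0.33. Il27ra, a receptor chain for interleukin 27, had 9.77 ± 0.92 CPM in CDC, 7.25 ± 0.70 CPM in the clone and 5.53 ± 0.32 CPM in pEpiC. It fell by 0.86 in pEpiC against CDC (adjusted p = 5.16e-05) and by 0.43 in the clone against CDC (adjusted p = 0.00555).

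Of the 16 JAK-STAT genes, all tested, 7 rose and 2 fell in pEpiC against CDC, 6 rose and 5 fell in the clone against CDC, and 5 rose and 7 fell in the clone against pEpiC. In pEpiC against CDC the split was 5 and 5 with the length offset and 13 and 1 in TPM, and in the clone against pEpiC it was 2 and 12 in TPM. The feedback inhibitors went different ways. Cish had 34.1, 31.7 and 34.5 CPM in CDC, 22.8, 26.1 and 23.8 CPM in the clone and 6.29, 6.18 and 6.35 CPM in pEpiC, and it fell by 2.46 in pEpiC against CDC (SE 0.075, adjusted p = 2.27e-09). Socs2 had 34.3, 36.3 and 39.8 CPM in CDC, 10.4, 11.9 and 11.2 CPM in the clone and 65.0, 66.3 and 62.4 CPM in pEpiC, and it fell by 1.73 in the clone against CDC (SE 0.091, adjusted p = 2.22e-10). Thus Socs3 was lowest in pEpiC, as was Cish, while Socs2 was highest there. Tyk2, a JAK family kinase, rose by 0.84 in the clone against CDC (SE 0.073, adjusted p = 7.48e-08). Ptpn6, a phosphatase gene, rose by 4.36 in pEpiC against CDC (adjusted p = 0.000188). Its 12.1, 3.27 and 3.28 CPM in pEpiC were highest in library 1, the library with the most macrophage transcripts. Without that library the change was 3.43 (adjusted p = 7.42e-06, edgeR). The macrophage markers still summed to 336 and 309 CPM in pEpiC libraries 2 and 3, against 57.7 to 61.0 CPM in CDC. The part of macrophages in the Ptpn6 levels was not tested. Ptpn6 also rose in the clone against CDC, by 2.78 (adjusted p = 3.05e-06), to a mean of 2.02 CPM.

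STAT3 and acute-phase targets were mostly lower in pEpiC than in CDC, while 38.5% of all genes passed as lower and 39.8% as higher. All 15 were tested, and against CDC 1 rose and 11 fell in pEpiC, with a median log2 change of -0.99 beside 0.02 over all genes; with the length offset 3 rose and 11 fell, in TPM 5 rose and 9 fell, and without CDC library 3, 2 rose and 11 fell. In the clone against CDC 5 rose and 8 fell (median -0.37; 3 and 8 without clone library 2), and in the clone against pEpiC 10 rose and 3 fell (median 0.94; 9 rose and 6 fell with the length offset, and 8 rose and 5 fell in TPM). Lcn2, an iron-binding acute-phase protein gene, had 31.7, 21.5 and 29.3 CPM in CDC, 34.4, 38.9 and 36.2 CPM in the clone and 0.954, 0.436 and 0.394 CPM in pEpiC. It fell by 5.56 in pEpiC against CDC (SE 0.25, adjusted p = 2.72e-08) and was higher in the clone than in pEpiC by 5.92 (SE 0.18, adjusted p = 1.52e-09). Like Socs3, Lcn2 was lowest in pEpiC and highest in the clone. Timp1, an inhibitor of metalloproteinases, had 701, 658 and 600 CPM in CDC, 180, 195 and 184 CPM in the clone and 150, 143 and 155 CPM in pEpiC, and it fell by 1.82 in the clone against CDC (SE 0.086, adjusted p = 6.06e-11). Il4ra, the interleukin 4 receptor chain, was lowest in the clone at 82.1 ± 4.1 CPM, against 278 ± 18 CPM in CDC and 196 ± 6.7 CPM in pEpiC, and fell against pEpiC by 1.26 (adjusted p = 1.20e-08). The immediate early gene Fos rose by 1.18 in the clone against CDC (adjusted p = 5.94e-07), and the survival gene Mcl1 rose by 0.51 in pEpiC against CDC (adjusted p = 2.60e-05).

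**Figure D4:**
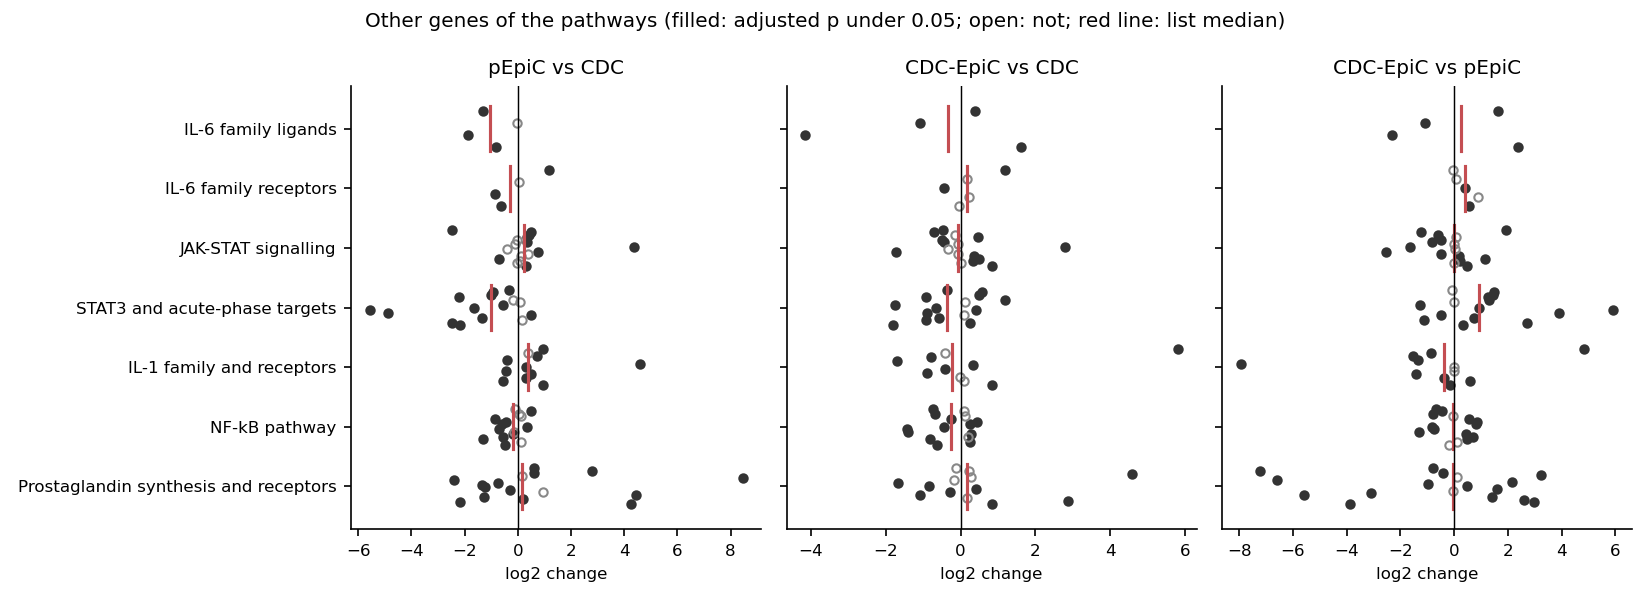
Fitted log2 change (first kind minus second) of each tested gene of the 7 lists in the 3 comparisons, with filled points for an adjusted p under 0.05, open points for the rest and red lines for list medians; each panel has its own range. The STAT3 and acute-phase targets have a median of -0.99 in pEpiC vs CDC and 0.94 in CDC-EpiC vs pEpiC.

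In the interleukin 1 family, 7 rose and 3 fell of 11 tested in pEpiC against CDC, 3 rose and 4 fell of 10 in the clone against CDC, and 2 rose and 7 fell of 11 in the clone against pEpiC. In TPM 8 rose and none fell in pEpiC against CDC, and with the length offset 4 rose and 6 fell in the clone against pEpiC. Il18, an inflammasome-dependent cytokine gene, had 73.8, 75.8 and 58.6 CPM in the clone, 1.29, 0.907 and 1.49 CPM in CDC and 2.21, 2.40 and 2.71 CPM in pEpiC. It rose by 5.80 in the clone against CDC (SE 0.16, adjusted p = 1.29e-13), so the clone had high Il18 where it had little Il33. Il1rn, the interleukin 1 receptor antagonist gene, had 12.7, 11.5 and 12.9 CPM in pEpiC, 0.415, 0.363 and 0.679 CPM in CDC and at most 0.0908 CPM in the clone. Against the limit of 3 counts per library, Il1rn was at least 92.2-fold lower in the clone than in pEpiC. Il1rap, the chain shared by the receptors for interleukin 1 and interleukin 33, fell by 1.71 in the clone against CDC (SE 0.084, adjusted p = 9.70e-11), as Il1rl1 was lower there. Myd88, the adaptor of these receptors, fell by 0.54 in pEpiC against CDC (adjusted p = 1.07e-05). In TPM it was at -0.04 and did not pass, where the median of all genes was 0.41.

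In the NF-kB pathway, 2 rose and 8 fell of 15 tested in pEpiC against CDC, although in TPM 7 rose and 3 fell, and with library size alone 5 rose and 7 fell. Leaving out CDC library 1, CDC library 2 or pEpiC library 1 left 1 rise, with 7, 8 and 8 falls. In the clone against CDC 4 rose and 8 fell, or 6 and 7 with library size alone and 2 and 8 without clone library 2, and in the clone against pEpiC 6 rose and 6 fell, or 3 and 9 in TPM. The inhibitors of NF-kB did not move together. Nfkbiz, an atypical inhibitor protein that also promotes Il6 transcription, had 60.6, 55.7 and 50.9 CPM in CDC, 22.5, 17.8 and 22.5 CPM in the clone and 36.2, 35.1 and 34.4 CPM in pEpiC, and fell by 1.42 in the clone against CDC (SE 0.099, adjusted p = 5.88e-09). Nfkbia, the main inhibitor protein, rose by 0.45 in the clone against CDC (SE 0.077, adjusted p = 9.12e-05), and Nfkbie fell by 0.84 in the clone against pEpiC (SE 0.15, adjusted p = 0.000391). Tnfaip3, a ubiquitin-editing inhibitor, fell by 1.32 in pEpiC against CDC (SE 0.18, adjusted p = 7.85e-05), and the kinase gene Ikbkb rose by 0.51 there (adjusted p = 1.63e-05).

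In prostaglandin synthesis and reception, 7 rose and 7 fell of 16 tested in pEpiC against CDC, or 9 and 5 in TPM, 4 rose and 4 fell of 13 in the clone against CDC, or 6 and 2 in TPM, and 7 rose and 8 fell of 17 in the clone against pEpiC. Ptgs1, the constitutive cyclooxygenase, had 88.7, 88.2 and 94.8 CPM in CDC, 646, 660 and 674 CPM in the clone and 105, 108 and 110.5 CPM in pEpiC. It rose by 2.86 in the clone against CDC (SE 0.081, adjusted p = 2.09e-13), so the cyclooxygenases stood in opposite orders, Ptgs2 being lowest and Ptgs1 highest in the clone by their means. Slco2a1, the prostaglandin transporter gene, had 252 ± 24 CPM in CDC, 450 ± 26 CPM in the clone and 58.0 ± 4.4 CPM in pEpiC, and fell by 2.16 in pEpiC against CDC (adjusted p = 1.14e-08). Ptger4, a prostaglandin E2 receptor gene, fell by 1.68 in the clone against CDC (SE 0.11, adjusted p = 3.33e-09). Ptgir, the prostacyclin receptor gene, had 17.5, 14.0 and 14.3 CPM in pEpiC and under 1 CPM in each CDC and clone library, and rose by 4.46 in pEpiC against CDC (SE 0.18, adjusted p = 1.18e-08).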

How the data were processed

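Poly(A) RNA libraries of CDC, CDC-EpiC and pEpiC were sequenced on a BGISEQ instrument. The submitters' processing notes name HISAT2 2.0.4, Bowtie2 2.2.5, RSEM 1.2.12, DESeq2 1.4.5 and build mm10; annotation and strand setting are not given in the sources used here. The authors deposited expected counts, FPKM and TPM for 18245 genes in 9 libraries, of 22008833 to 22756045 counts; 30.3% of the expected counts are not whole. Their 9 columns of means were not used.

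Expected counts were rounded and tested with edgeR 4.0.16 (R 4.3.3; glmQLFit and glmQLFTest, filterByExpr with a minimum of 10 and a total of 15, TMM, Benjamini-Hochberg, 0.05) on the 6 libraries of each pair. Alternatives used limma 3.58.1 and DESeq2 1.42.0. The script was tested on simulated data. Between libraries of a kind chi-square per degree of freedom was 4.89 to 23.0, above counting noise, so none was counted as a library deposited again; whether they are repeat preparations of the same culture was not tested.

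The 10 genes and all lists were chosen with earlier results of these data known. From each list the text names, per comparison, the largest rise and fall among called genes whose libraries did not overlap and whose higher kind reached 5 CPM, and the 5 genes most like Il6; 1 gene that this rule names is not reported here. RefSeq tables gave positions and promoters; proteins were not analysed here.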

Additional observations from a re-analysis of the deposited data

How the results depend on the processing

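For the 10 genes in pEpiC against CDC, 6 passed and between 6 and 7 passed when each library was left out in turn; 9 passed with the length offset and 10 with log2(TPM + 1). Lif also passed without pEpiC replicate 3 (adjusted p = 0.0133, edgeR). Il11 in pEpiC against CDC ranged from 0.041 without CDC replicate 3 to 0.93 without CDC replicate 1. Values that changed sign, past the threshold only for Il6st, Osmr and Lif in TPM, were Il6st at 0.0583 with library size alone, 0.46 in TPM, 0.0736 with log2(FPKM + 1), 0.0740 with log2(FPKM + 0.1) and -0.15 to 0.051 with each library left out (0.051 without CDC replicate 3), Osmr at 0.0267 with library size alone, 0.42 in TPM, 0.0430 and 0.0437 in FPKM with the same pseudocounts, Lif at 0.29 in TPM and Lifr in the clone against pEpiC at -0.0546 in TPM. For the clone against CDC, 3 of the 10 genes were lower by 2-fold or more, 1 with log2(FPKM + 1), and 3 to 4 with each library left out: Il11 joined without CDC replicate 3, clone replicate 1 or clone replicate 3 and Il33 without clone replicate 2. For the clone against pEpiC 3 were lower with every library left out in turn, 4 with log2(TPM + 1), where Osmr joined and Socs3 was no longer higher by 2-fold, and 2 with log2(FPKM + 1). A test against a 1.5-fold change called 30 of the pathway genes in pEpiC against CDC (61 before), 25 in the clone against CDC (57) and 44 in the clone against pEpiC (67); leaving out each library gave 61 to 66, 50 to 57 and 66 to 69.

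Libraries of the same number did not deviate together (correlations of -0.109 to 0.0851 over 9 pairs). With the replicate block on the library number, 7 of the 10 genes passed in pEpiC against CDC (Lif, adjusted p = 0.0445, edgeR), 3 were lower by 2-fold or more in each clone comparison, and 62, 58 and 67 pathway genes passed. Il11 in all comparisons and Il1rl1 in those with the clone had too few counts for a minimum of 10 in every library. The causes of these changes were not tested. At this depth, levels near 1 CPM rest on few counts, which limits Il11, Il1rl1 and the clone level of Il6.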
